A study of Mus musculus with 12 samples.

Results

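The matrix metalloproteinases (Mmp genes), the ADAMTS proteases (Adamts genes) and the tissue inhibitors of metalloproteinases (Timp genes) were followed in mouse pancreatic tumours. Members were taken by gene symbol alone: a non-control array probe belonged if its gene name was Mmp, Timp or Adamts followed by a number and at most 1 letter. This gave 91 of 56605 probes and 46 of 37008 genes, made up of 23 Mmp genes, 4 Timp genes and 19 Adamts genes. Every tumour came from a female C57BL/6 mouse, 8 weeks old per the labels, that carried an orthotopic tumour named KP, that is, a tumour grown in the pancreas itself. The vehicle group (n = 6) received vehicle for 14 days, and the FAKi group (n = 6) was given FAKi, which blocks focal adhesion kinase, by gavage at 50 mg/kg over the same 14 days. RNA was taken from whole tumour tissue, so fewer cells of a type and less RNA per cell cannot be told apart in any value given here. Nothing in the labels says whether each numbered tumour is a separate animal or how many KP clones were used, so p-values measure the spread between these samples only.

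Matrix metalloproteinases are zinc proteases that are made as inactive proenzymes and cut collagens, laminins, growth factor binders and other proteins outside the cell once their propeptide is removed. ADAMTS proteases share the zinc site but carry thrombospondin repeats that tie them to the matrix, and they cut proteoglycans, procollagens and von Willebrand factor. TIMPs bind the active site of these enzymes one to one and block it, and Timp2 also takes part in the activation of Mmp2 by the membrane-bound Mmp14. In pancreatic cancer, which is rich in fibrous stroma, these enzymes are known from fibroblasts, macrophages, neutrophils and tumour cells alike.

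Of the 23 Mmp genes, 10 lie side by side on chromosome 9, where their array probes span 417 kb from 7282762 to 7699535 (mm9), in the order Mmp13, Mmp12, Mmp1b, Mmp3, Mmp1a, Mmp10, Mmp8, Mmp27, Mmp20 and Mmp7. Genes of this cluster are known to answer to AP-1, the Fos and Jun factors, through a site near the start of transcription. RefSeq promoter windows on GRCm38.p6, from 250 bases before the annotated start to 50 after it, were found for 32 of the 46 members. An AP-1 motif, TGACTCA or its reverse complement TGAGTCA, stood in 7 of the 10 windows of the cluster and in 0 of the 22 other windows, against 5.946% of 27025 genes. A TATAAA motif on the gene's own strand stood in 8 of the 10 and in 2 of the 22, against 9.772% of all genes. These are matches of letters and show no binding. The 7 windows with an AP-1 match are printed because all 7 hold it within 110 bases before the start. Each sequence is the 110 bases just before the start, 5′ to 3′ on the strand of the gene, and capitals mark the AP-1 motif and TATAAA. Mmp13 is at chr9:7272404-7272513 (plus strand), Mmp12 at chr9:7347264-7347373 (plus), Mmp1b at chr9:7388027-7388136 (minus), Mmp3 at chr9:7445712-7445821 (plus), Mmp1a at chr9:7464031-7464140 (plus), Mmp10 at chr9:7502232-7502341 (plus) and Mmp7 at chr9:7691980-7692089 (plus), all GRCm38.p6.
Mmp13: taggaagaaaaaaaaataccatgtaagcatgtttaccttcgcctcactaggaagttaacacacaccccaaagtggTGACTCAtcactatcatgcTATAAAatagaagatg
Mmp12: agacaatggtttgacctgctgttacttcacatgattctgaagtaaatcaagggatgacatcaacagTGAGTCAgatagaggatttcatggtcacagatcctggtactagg
Mmp1b: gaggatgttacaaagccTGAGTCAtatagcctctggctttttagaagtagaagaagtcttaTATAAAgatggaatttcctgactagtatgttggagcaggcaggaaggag
Mmp3: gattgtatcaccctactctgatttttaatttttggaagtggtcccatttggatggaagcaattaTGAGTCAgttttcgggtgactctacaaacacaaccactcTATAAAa
Mmp1a: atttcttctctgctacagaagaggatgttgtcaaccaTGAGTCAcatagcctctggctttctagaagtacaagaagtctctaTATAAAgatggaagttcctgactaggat
Mmp10: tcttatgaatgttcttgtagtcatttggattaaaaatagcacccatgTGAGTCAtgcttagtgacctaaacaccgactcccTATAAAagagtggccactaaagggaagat
Mmp7: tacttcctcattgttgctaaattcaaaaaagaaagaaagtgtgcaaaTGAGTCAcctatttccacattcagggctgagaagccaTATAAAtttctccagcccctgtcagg
In Mmp13, the interstitial collagenase of mice, the motif starts 35 bases before the start and is of the TGACTCA form, while the other 6 hold TGAGTCA. In Mmp3 and Mmp10, the stromelysins, it starts 46 and 63 bases before the start, and in Mmp7, matrilysin, 63 bases before it. The TATAAA of Mmp12, macrophage elastase, lies 4 bases after the annotated start and is outside the printed stretch. Mmp1a and Mmp1b are near copies of each other, and a probe for one may read the other.

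**Figure D1:**
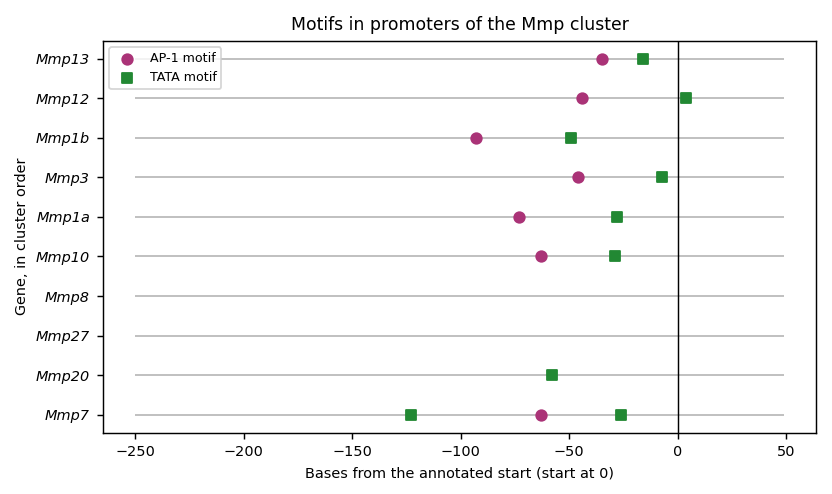
Positions of the AP-1 motif (circles) and the TATAAA motif (squares) in the promoter windows of the 10 clustered Mmp genes, as the first base of the motif in bases from the annotated start. AP-1 motifs lie between 93 and 35 bases before the start in 7 genes, and none is found in the windows of Mmp8, Mmp27 and Mmp20.

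Values are log2 of the array's processed signal minus the 75th percentile of that array, so 0 is the 75th percentile, and levels of different probes are not compared. A gene counted as measured if 6 or more of the 12 arrays read one of its probes well above background, which held for 27351 genes and for 39 members, 17 Mmp, 4 Timp and 18 Adamts genes. No probe of Mmp1a, Mmp1b, Mmp16, Mmp20, Mmp21, Mmp27 or Adamts19 met that mark, and no value is given for them. Between 66.6% and 76.1% of spots were well above background on an array, and the 75th percentile lay between 11.84 and 13.90 log2 units, lowest on vehicle 6. Vehicle 6 gave the highest value of the 12 arrays for 36.0% of all genes and vehicle 5 for 14.0%, and several members below are also given without these arrays or without FAKi 6. The arrays lay on 5 slides, and only slide 1 (vehicle 3 and 5, FAKi 5) and slide 4 (vehicle 2 and 6, FAKi 1) held both groups.

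No member changed between FAKi and vehicle tumours by the test across all genes. Of 27351 genes, 0 (0%) passed a Benjamini-Hochberg adjusted p of 0.05 in limma, and 0 of 39 members did. An unadjusted p under 0.05 was reached by 1311 genes, or 4.79%, split into 2.74% that were higher with FAKi and 2.05% that were lower. Among the members 1 of 39 (2.56%) reached that mark, Adamts1, which was lower, and this share is not above the background. Members at that mark numbered 3 without vehicle 5, 5 without vehicle 6, 4 without FAKi 1 and 3 without FAKi 6, where 4.77%, 13.9%, 6.35% and 6.23% of all genes were at it. Without FAKi 1 3 genes passed the adjusted p, and 0 of them were members. With array weights in limma 3 genes passed, of which 0 were members, and 4 members had an unadjusted p under 0.05 where 18.7% of all genes did. The median difference of the members was 0.15 log2 against 0.09 over all genes. A difference below 0 was found for 13 of 39 members (33.3%), against 39.2% of all genes. With slide as a fixed block 24 of 39 were below 0, and the median was −0.05 for members and −0.03 for all genes, so this lean turned. A difference of more than 1 log2 unit was found for 1 member (2.56%), against 3.92% of all genes. The groups overlapped for each of the 39 measured members, and over all genes 0.239% had groups that did not overlap.

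The 95% interval of the difference lay inside 1 log2 unit either way for 15 of 39 members, so for the other members a change of 1 log2 unit in at least one direction lay inside the interval. A rise of 1 log2 unit lay outside the interval for 20 members and a fall of that size for 29. Within slides 1 and 4, each of which sets 1 FAKi tumour against 2 vehicle tumours, the difference had the same sign in both for 13 of 39 members. When each of the 12 arrays was left out in turn, 23 of 39 members kept the sign of their difference throughout.

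**Figure D2:**
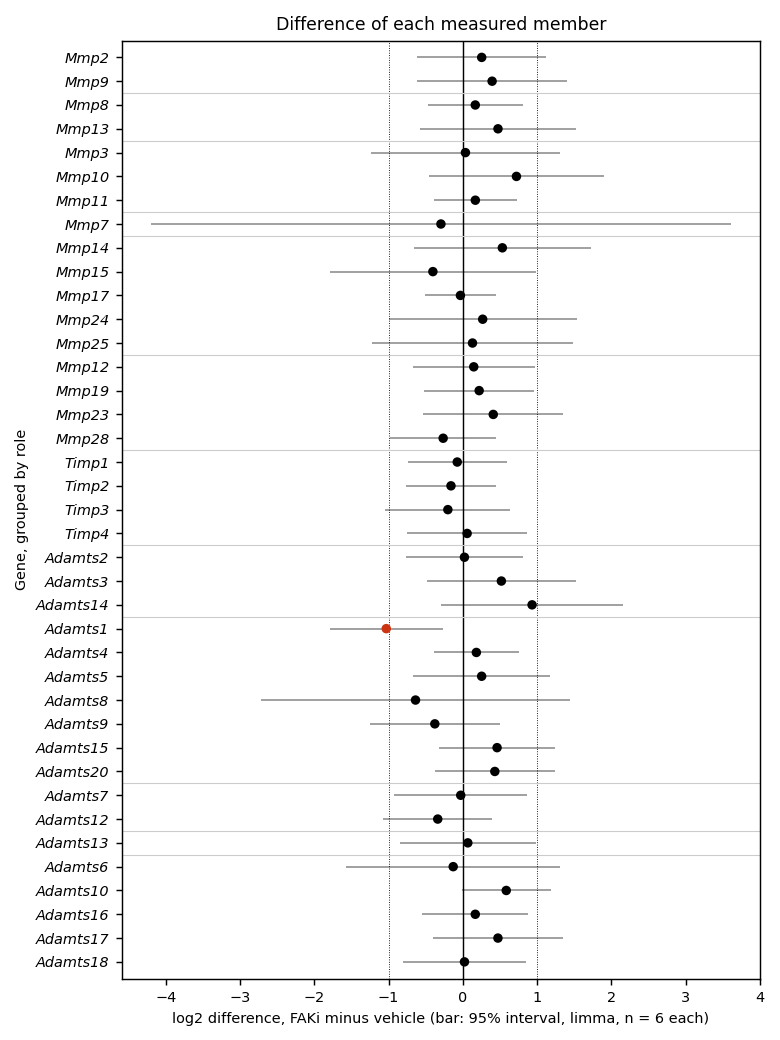
Difference of each of the 39 measured members, FAKi minus vehicle, in log2 units, grouped by role, with the limma estimate as a point and its 95% interval as a bar (n = 6 tumours in each group), and dotted lines at 1 log2 unit either way. Adamts1, in red, is the single member with an unadjusted p under 0.05, and the interval of Mmp7 is the widest, from −4.20 to 3.61.

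None of the 4 inhibitors differed between the groups beyond its spread, and the 95% intervals ran from −1.04 for Timp3 to 0.86 for Timp4. Timp1, an inducible inhibitor, ranged in vehicle tumours from 4.31 over a median of 5.10 to 6.07, and in FAKi tumours from 4.44 over 5.09 to 5.56. Its lowest and highest values were both in vehicle tumours, replicates 1 and 6, so the FAKi values lay inside the vehicle range. The log2 difference was −0.07 (SE 0.311, 95% interval −0.74 to 0.59).

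Timp2, the inhibitor that also serves Mmp2 activation, ranged from 4.17 over 4.92 to 5.65 in vehicle and from 4.28 over 4.64 to 5.28 in FAKi tumours, a difference of −0.16 (SE 0.282). Timp3, which is held in the matrix and also blocks ADAMTS and ADAM proteases, ranged from 2.84 over 3.05 to 4.98 in vehicle and from 2.62 over 3.31 to 4.04 in FAKi tumours, a difference of −0.20 (SE 0.392). For both genes vehicle 5 was the highest of the 12 tumours and the groups overlapped. A second probe of Timp2 gave a difference of 0.03. Timp4 ranged from −5.31 over −4.68 to −3.27 in vehicle and from −5.29 over −4.41 to −3.74 in FAKi tumours, with a difference of 0.06 (SE 0.374). None of the 4 had an unadjusted p under 0.05 in limma, where the smallest was 0.581 for Timp2. The signs of these small differences turned with the setting: with array weights Timp1, Timp2 and Timp3 were above 0 and Timp4 was below it, and with quantile normalisation, normexp background correction or the authors' deposited log2 table Timp4 was below 0. Without vehicle 6 and FAKi 6 Timp1 and Timp3 were above 0 and Timp4 was below it.

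Both gelatinases, which cut denatured collagen and type IV collagen, had means slightly higher in FAKi tumours, by less than the spread. Mmp2, largely a product of stromal cells, ranged from 1.21 over 1.84 to 2.37 in vehicle and from 0.38 over 2.24 to 2.95 in FAKi tumours. FAKi 6 was the lowest and FAKi 3 the highest of all 12, so the FAKi tumours enclosed the vehicle range. The difference was 0.25 (SE 0.402, 95% interval −0.61 to 1.12). Without FAKi 6 the difference of Mmp2 was 0.58, and without FAKi 3 it was 0.07.

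Mmp9, known from neutrophils and macrophages, ranged from −0.18 over 0.83 to 1.62 in vehicle and from −0.43 over 1.50 to 2.39 in FAKi tumours. FAKi 1 was the lowest and FAKi 2 the highest, and the difference was 0.39 (SE 0.469). Without FAKi 2 it was 0.15, and without FAKi 1 it was 0.71. Its 2 probes gave 0.39 and 0.10. Within slide 1 the difference of Mmp9 was 0.76 and within slide 4 it was −1.50.

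Mmp14, the membrane-bound protease that activates Mmp2 and cuts fibrillar collagen at the cell surface, had a pair of low arrays. It ranged from −0.11 over 1.80 to 2.08 in vehicle and from −0.53 over 2.23 to 2.70 in FAKi tumours, and its lowest values were in vehicle 6 and FAKi 6. The other 5 FAKi tumours, at 2.17 and above, all lay above every vehicle tumour. The difference was 0.53 (SE 0.554, unadjusted p = 0.353 in limma). Without FAKi 6 it was 1.02, and without vehicle 6 and FAKi 6 it was 0.72 (unadjusted p = 0.0273, adjusted p = 0.315). Without vehicle 5 as well it was 0.47 (unadjusted p = 0.0308, adjusted p = 0.235). These arrays were picked after their values were seen, so these p-values describe the remaining arrays and no call is drawn from them.

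The other membrane-type enzymes differed by −0.40 (Mmp15), −0.03 (Mmp17), 0.27 (Mmp24) and 0.13 (Mmp25), each within its spread. Mmp15 was lowest in vehicle 6 at −4.89 and FAKi 6 at −4.17, the same arrays in which Mmp14 was low. On vehicle 6 the Mmp15 probe was not well above background, so that value is a bound. Mmp17 varied least of all members, over 0.89 log2 units in the 12 tumours. A second, dim probe of Mmp17, well above background on 6 arrays, gave a difference of −1.14. Mmp25, known from neutrophils, was well above background on 5 vehicle and 4 FAKi arrays.

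Collagenases cut intact fibrillar collagen. Mmp13, the main one of mice, ranged from −0.56 over 0.08 to 1.61 in vehicle and from −0.24 over 0.48 to 2.63 in FAKi tumours. FAKi 2 stood highest and vehicle 6 next, and 3 of 6 FAKi tumours lay above the vehicle mean. The difference of Mmp13 was 0.47 (SE 0.490), and without FAKi 2 it was 0.10. Mmp8, the neutrophil collagenase, gave 0.17 (SE 0.298).

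Stromelysins cut proteoglycans and fibronectin and activate other proenzymes. Mmp10 had the largest difference of the Mmp genes, 0.72 (SE 0.549, 95% interval −0.46 to 1.90), and did not pass. It ranged from −0.48 over 0.24 to 1.54 in vehicle and from −0.80 over 1.02 to 2.96 in FAKi tumours. Both its lowest value, in FAKi 1, and its highest, in FAKi 2, were in the FAKi group. Without FAKi 2 the difference of Mmp10 was 0.34, and without FAKi 1 it was 1.09. Within slide 1 the difference was 1.32 and within slide 4 −1.74, and a fit with slide as a block gave −0.21. Mmp3, near Mmp10 in the gene cluster and in the sequences printed above, gave 0.04 (SE 0.591), and Mmp11, a stromelysin outside the cluster known from tumour fibroblasts, 0.17 (SE 0.259).

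Mmp7, matrilysin, a small protease of epithelial cells, varied more between tumours than any other member. It ranged from −8.26 over −2.42 to 3.51 in vehicle and from −8.41 over −2.06 to 2.16 in FAKi tumours. The highest were vehicle 2 and FAKi 1, while on vehicle 5 and FAKi 3 the probe was not well above background, so those values are only bounds. With these arrays set to the lowest signal of their probes well above background, the range was at least 9.66 log2 units. The fit took both arrays at their measured values and gave a difference of −0.29 with an SE of 1.81, and the difference of means with both at that floor was −0.28. Leaving out vehicle 5 gave −1.52 and leaving out FAKi 3 gave 0.91, so the direction for Mmp7 rests on them. With slide as a block it was 2.93 and its sign was turned.

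The remaining Mmp genes gave 0.41 (Mmp23, SE 0.437), −0.26 (Mmp28), 0.22 (Mmp19) and 0.15 (Mmp12). Mmp23 ranged from −0.68 over 0.13 to 0.85 in vehicle and from −1.37 over 0.91 to 1.49 in FAKi tumours. Its lowest values were in FAKi 6 and vehicle 6, as for Mmp14. Without FAKi 6 its difference was 0.80, and with slide as a block it was 1.12 (unadjusted p = 0.0364). Of the 3 probes of Mmp12, 1 gave −0.18 and the others 0.15 and 0.33.

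Among the Adamts genes, Adamts1 was the one with the smallest p. Adamts1 is an inducible protease that cuts versican and aggrecan and is known to restrain vessel growth. In vehicle tumours it ranged from −0.25 over 0.58 to 1.77, and in FAKi tumours from −1.07 over −0.58 to 0.56. Each of the 6 FAKi tumours lay below the vehicle mean, but FAKi 1, at 0.56, lay above vehicle 1, vehicle 4 and vehicle 6, so the groups overlapped. The log2 difference was −1.03 (SE 0.353, 95% interval −1.79 to −0.27), or 0.489 of the vehicle level. Its unadjusted p was 0.0115, number 324 of all genes in order of p, and its limma adjusted p was 0.966. The single probe lies on chromosome 16 at 85795044 to 85795103 (mm9), so no second probe checks it.

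The difference of Adamts1 was −1.40 within slide 1 and −0.35 within slide 4, and a fit with slide as a block gave −0.88 (unadjusted p = 0.112). Leaving out any 1 array gave −1.23 to −0.80. Endothelial markers lay beside it: 10 of 11 measured markers were below 0, with a median of −0.34. Their mean score ranged from −0.83 to 0.98 in vehicle and from −0.97 to 0.33 in FAKi tumours, a difference of −0.36 (exact permutation p = 0.268, two-sided). Other marker lists also leaned one way: 8 of 9 adipocyte markers were below 0 (median −0.88), while 10 of 10 acinar markers (median 0.40) and 11 of 12 fibroblast markers (median 0.29) were above it. Their score differences were −1.02 (exact permutation p = 0.318), 0.46 (exact permutation p = 0.0974) and 0.27 (exact permutation p = 0.435). The part of any of these cells in the value of Adamts1 was not tested.

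Of the other 6 proteoglycanases, 2 were below 0 like Adamts1 and 4 above it, each within its spread. Differences were above 0 for Adamts15 (0.46), Adamts20 (0.43), Adamts5 (0.25) and Adamts4 (0.18), and below 0 for Adamts9 (−0.38) and Adamts8 (−0.64). Adamts4 and Adamts5 are the main aggrecanases of cartilage. Adamts8 was well above background on 5 vehicle and 4 FAKi arrays and its SE was 0.967. Adamts9 was highest in vehicle 5, at 0.75, and without that tumour its difference was −0.02. Its 4 probes ran from −0.38 to 0.70, and the probe at 0.70 was well above background on 4 vehicle and 6 FAKi arrays.

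The procollagen N-propeptidases trim the amino end of new fibrillar procollagens. Adamts14 had the largest difference above 0 of all members, 0.93 (SE 0.568, 95% interval −0.29 to 2.15, unadjusted p = 0.123), and both of its probes gave about the same, 0.93 and 0.94. It ranged from −1.91 over −1.16 to 1.60 in vehicle and from −0.92 over 0.24 to 1.31 in FAKi tumours. Vehicle 5 was the highest of all 12, and without it the difference of Adamts14 was 1.39 (limma, unadjusted p = 0.00848, adjusted p = 0.908). Vehicle 5 is named because of its high value, so no call is drawn from these p-values. Without vehicle 2, the lowest tumour, the difference of Adamts14 was 0.69. Adamts3 gave 0.52 and Adamts2, the main enzyme of this kind in skin, 0.02. The other probes of Adamts2 gave 0.57 and −0.13. On vehicle 1 Adamts3 was not well above background, so its value there is a bound. Without vehicle 1 the difference of Adamts3 was 0.12, and without vehicle 6 it was 0.87.

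Adamts10, a protease that binds fibrillin microfibrils, came nearest to the mark after Adamts1. It ranged from −2.69 over −1.93 to −1.30 in vehicle and from −2.19 over −1.19 to −1.02 in FAKi tumours, with FAKi 1 alone below the vehicle mean. The difference was 0.59 (SE 0.280, unadjusted p = 0.0560), and its 5 probes ran from 0.51 to 0.88. Over the 12 tumours the other probes correlated with the probe used at 0.31, 0.34, 0.42 and 0.81, so most followed it only loosely. Within slide 1 the difference was 0.69 and within slide 4 it was −0.19. On slide 4 FAKi 1, at −2.19, lay above vehicle 2, at −2.69, and below vehicle 6, at −1.30.

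Adamts12, which cuts cartilage oligomeric matrix protein, ranged from 0.00 over 0.80 to 2.15 in vehicle and from 0.25 over 0.59 to 1.16 in FAKi tumours. The difference was −0.34 (SE 0.340), while a dimmer probe gave 0.71. That probe was well above background on only 2 vehicle and 5 FAKi arrays, so its opposite sign rests in part on bounds. Without vehicle 5, its highest tumour, the difference of Adamts12 was −0.11. Adamts7, of the same role, gave −0.03, and 0.27 without vehicle 5. Adamts13, the protease of von Willebrand factor, ranged from −5.67 over −3.85 to −3.33 in vehicle and from −4.84 over −4.19 to −3.66 in FAKi tumours, a difference of 0.07 (SE 0.427). Vehicle 3 and 5 were its lowest tumours and FAKi 5, at −4.84, came next, and these are the arrays of slide 1. Within slide 1 the difference of Adamts13 was 0.81 and within slide 4 it was −0.59. Its sign turned with quantile normalisation, normexp background correction, array weights and the authors' deposited log2 table. Adamts17 gave 0.47, Adamts16 0.17, Adamts18 0.02 and Adamts6 −0.13. A second probe of Adamts18 gave −0.13. A second probe of Adamts6, well above background on 5 vehicle and 4 FAKi arrays, gave 0.33.

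**Figure D3:**
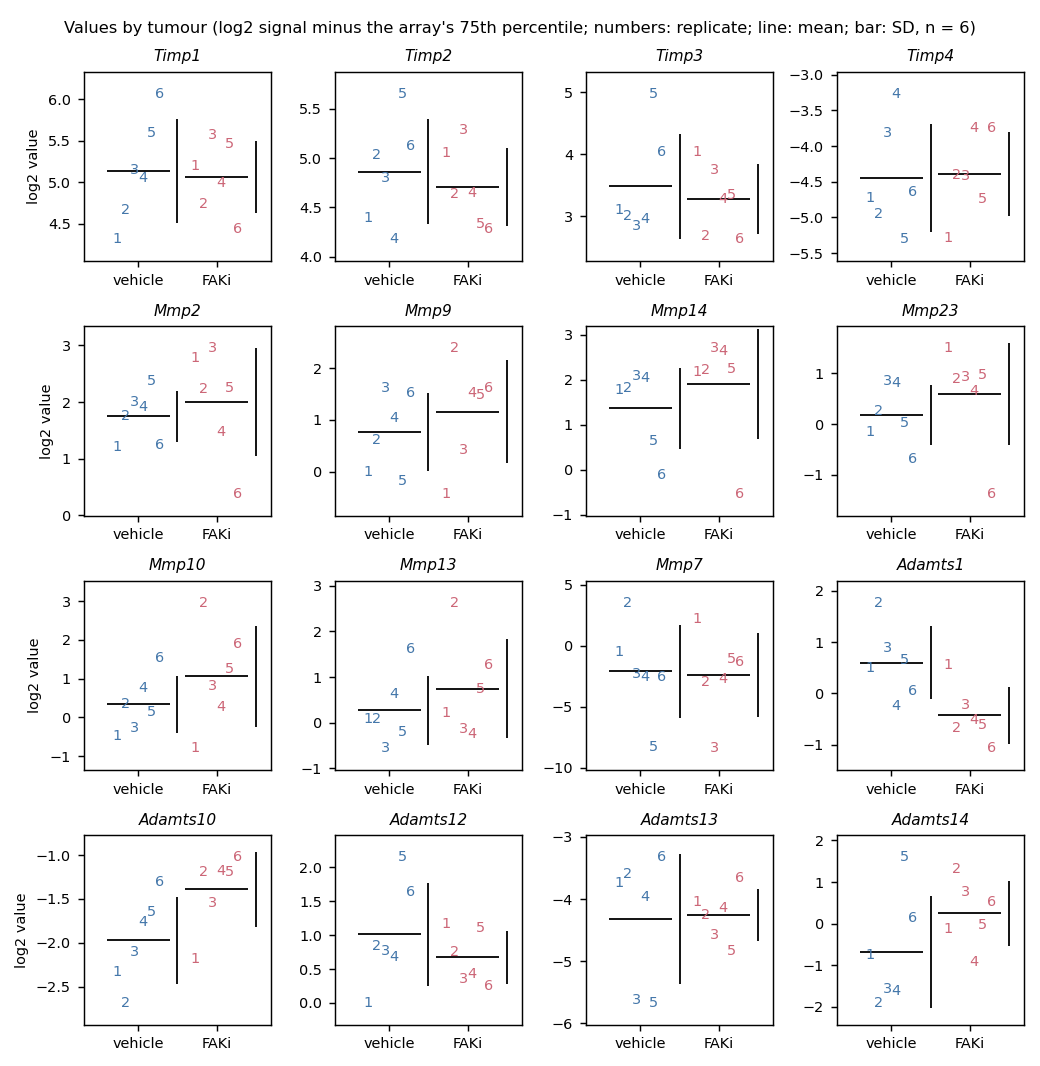
Log2 value of 16 members in each tumour, vehicle in blue and FAKi in red, drawn as the replicate number, with the group mean as a line and the SD (n = 6) as a bar. The groups overlap in every panel, vehicle 6 and FAKi 6 are the low tumours of Mmp14 and Mmp23, and 6 of 6 FAKi tumours lie below the vehicle mean for Adamts1.

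Members varied widely between tumours. The median range over the 12 tumours was 2.42 log2 units for the members and 2.02 for all genes. A range over 3 log2 units was found for 12 of 39 members (30.8%) and for 19.4% of all genes. Among these members were Mmp7, Mmp15, Mmp25, Adamts3, Adamts6 and Adamts8, none of them well above background on every array. Their low values are bounds, so the share of members rests in part on readings near background. The share of all genes was not split in this way. Of the 6 measured genes of the chromosome 9 cluster, 4 had a range over 3 log2 units: Mmp7, Mmp10, Mmp3 and Mmp13.

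Single tumours carried the extremes. FAKi 2 was the highest of the 12 tumours for 8 of 39 members, against 4.67% of all genes. These were Mmp3, Mmp9, Mmp10, Mmp11, Mmp13, Adamts4, Adamts8 and Adamts16. For Adamts4 FAKi 2, at 0.586, was nearly level with vehicle 5, at 0.584. FAKi 2 was the lowest for 0 members. Vehicle 5 was the highest for 9 of 39 members, against 14.0% of all genes: Adamts2, Adamts7, Adamts9, Adamts12, Adamts14, Mmp19, Mmp24, Timp2 and Timp3. It had the lowest ductal marker score, −1.27, and the lowest Mmp12. Vehicle 6 was the highest for 8 of 39 members, against 36.0% of all genes. These counts are descriptions of single tumours and carry no test.

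**Figure D4:**
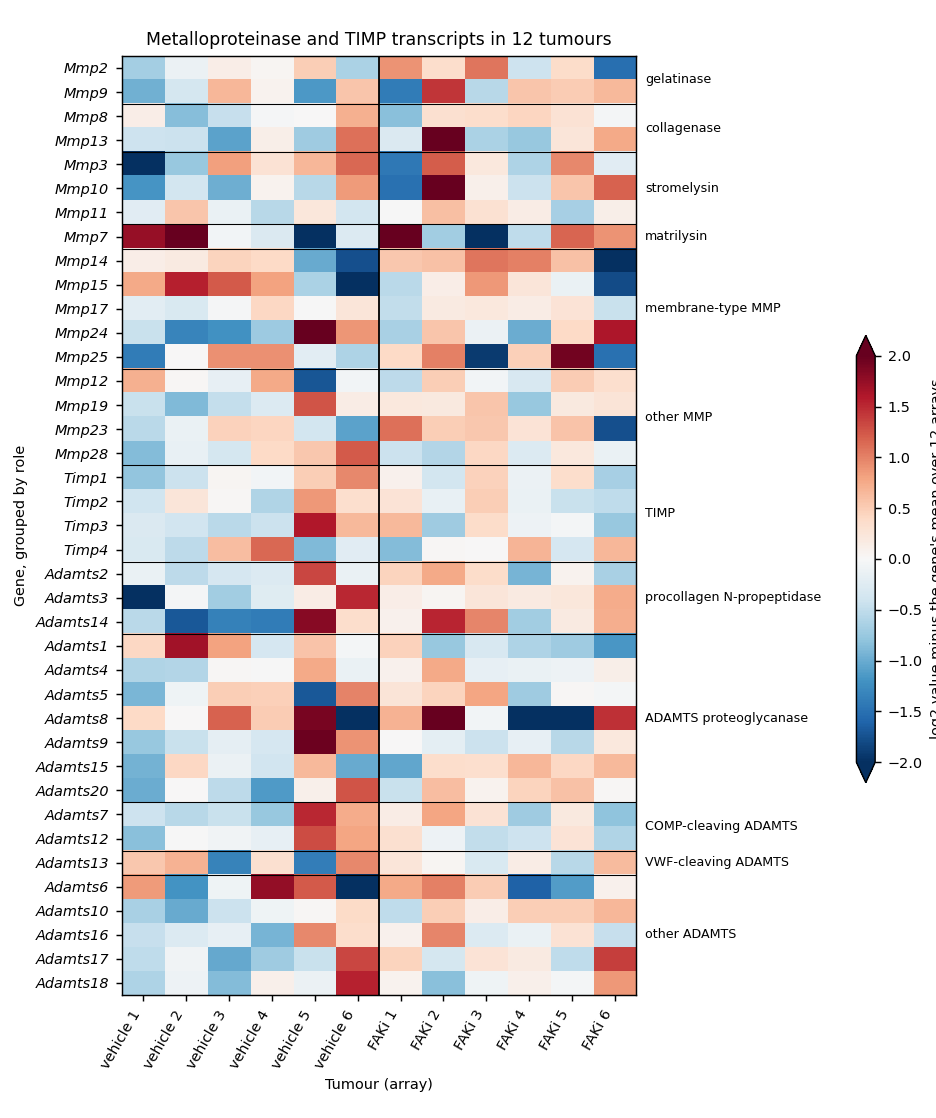
Log2 value of each of the 39 measured members minus its mean over the 12 tumours, in rows grouped by role and columns by tumour, with the colour scale cut at 2 log2 units either way. No row separates the 6 vehicle from the 6 FAKi tumours, and Mmp14, Mmp15 and Mmp23 are dark blue in FAKi 6.

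Lists of other genes of the same pathways also had 0 members that passed the adjusted p in limma. The lists are short and were chosen with earlier results of these data known. Their shares beside those of all genes therefore carry no test, and no excess is read from them. Of 24 proteins that activate or block metalloproteinases, 23 were measured, and at an unadjusted p under 0.05 1 was higher and 2 were lower, together 13% of the list against 4.79% of all genes. Pcsk6, a proprotein convertase, differed by −0.94 (SE 0.253, adjusted p = 0.851). In 6 of 6 FAKi tumours it lay under the mean of the vehicle group. The gene on the higher side was Plat, tissue plasminogen activator, at 0.64, named after its values were seen.

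Of 22 other metzincins and ADAMTS-like proteins, 20 were measured, 0 were higher and 2 were lower at an unadjusted p under 0.05, which is 10% of the list against 4.79% of all genes. Adamtsl4, an ADAMTS-like protein without a protease domain, differed by −1.07 (SE 0.264, adjusted p = 0.744). Adam8, a membrane protease of myeloid and tumour cells, differed by −0.74 (SE 0.265). The median of this list was −0.25 and 14 of 20 members were below 0.

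Of 30 matrix substrates, 29 were measured, 0 were higher and 2 were lower at an unadjusted p under 0.05, which is 6.90% of the list against 4.79% of all genes. The list median was −0.06. These were Vwf, the endothelial substrate of Adamts13, at −1.06 (SE 0.351, adjusted p = 0.924), and Thbs1, a substrate of Adamts1, at −0.91 (SE 0.411). Thbs1 was −1.73 within slide 1 and 0.81 within slide 4. Of 24 regulators and inducers, AP-1 subunits among them, 23 were measured and 0 had an unadjusted p under 0.05, with a median of −0.09. Those of smallest p were Etv1, an ETS factor, at −0.75 (SE 0.491) and Fosb, an AP-1 subunit, at 0.38 (SE 0.269).

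Members were then set against marker scores of the cell types they are known from, over the 12 tumours. For a score, each marker's log2 value was centred on its mean over the 12 tumours and the markers were averaged, and no member is in a marker list. The tissue held measured markers of every type asked: 12 of 12 for ductal epithelium, fibroblasts and macrophages, 11 of 12 for neutrophils and endothelium, and 10 of 12 for acinar cells. In all 18 pairs were computed, 12 of a member with a score and 6 of a member with another member, and 0 of 18 Pearson correlations passed after adjustment over the 18 (smallest adjusted permutation p = 0.0994). With arrays centred on the median in place of the 75th percentile, 6 of 18 passed, and without vehicle 5 4 did. Of the rank correlations 4 passed. All pairs share the 12 libraries, and slides of at most 3 arrays allow no value within a slide.

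Mmp2, a stromal gelatinase, was compared with the fibroblast score and gave Pearson's r of 0.66 (permutation p = 0.0201, adjusted p = 0.0994) and Spearman's rho of 0.79 (adjusted permutation p = 0.0294). Within the groups r was 0.61 in vehicle (exact permutation p = 0.197) and 0.82 in FAKi tumours (exact permutation p = 0.0403). With slide means removed it was 0.57. Without vehicle 1 and FAKi 3, the tumours farthest from the median score, r was 0.55 (permutation p = 0.0980), so the relation rests in part on them.

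Adamts2 gave with the same score an r of 0.61 (adjusted permutation p = 0.105) and rho of 0.73 (adjusted permutation p = 0.0445). Without the same 2 tumours r was 0.84. Timp2 (r of 0.56), Timp3 (0.52) and Adamts5 (0.28) did not pass by either measure. Adamts5 was lowest in vehicle 5, and without that tumour its r was 0.80 (adjusted permutation p = 0.0235). Vehicle 5 is named here because of its low value, so no call is drawn from this p-value. Leaving out each array in turn gave an r of 0.04 to 0.80 for Adamts5. Without vehicle 1 and FAKi 3 its r was −0.17. For Mmp14 r was 0.08 and rho 0.41, and its low values in vehicle 6 and FAKi 6 stand out in the plot of members against marker scores.

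Mmp15, a membrane-type enzyme, gave with the ductal score an r of 0.69 (adjusted permutation p = 0.0994) and rho of 0.80 (adjusted permutation p = 0.0294). Without vehicle 2 and vehicle 5 r was 0.80, and with slide means removed it was 0.72. The Mmp15 value of vehicle 6, its lowest, is a bound. For Mmp7 r with the ductal score was 0.52 and rho 0.25, and without vehicle 2 and vehicle 5 r was −0.18, so that value rests on those tumours.

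Mmp25 gave with the neutrophil score an r of 0.69 (adjusted permutation p = 0.0994) and rho of 0.74 (adjusted permutation p = 0.0445). Without vehicle 5 and FAKi 5 its r was 0.66. On vehicle 6, FAKi 3 and FAKi 6 Mmp25 was not well above background, so both correlations rest in part on bounds. Mmp8 and Mmp9, stored in neutrophil granules, had r of 0.13 and 0.45 with that score, and neither passed. Mmp12 had r of −0.56 with the macrophage score and a rho of −0.17, and without vehicle 5 and FAKi 6 r was −0.01.

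Among members, Mmp2 and Mmp14 had r of 0.65 (adjusted permutation p = 0.0994), which was 0.09 without vehicle 6 and FAKi 6. Mmp3 and Mmp10 had r of 0.63 (adjusted permutation p = 0.0994), 0.46 without FAKi 1 and FAKi 2, and 0.84 with slide means removed. Mmp2 with Timp2 gave 0.50 and Mmp8 with Mmp9 0.43. Mmp14 with Timp2 (−0.08) and Mmp9 with Timp1 (−0.06) were near 0.

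**Figure D5:**
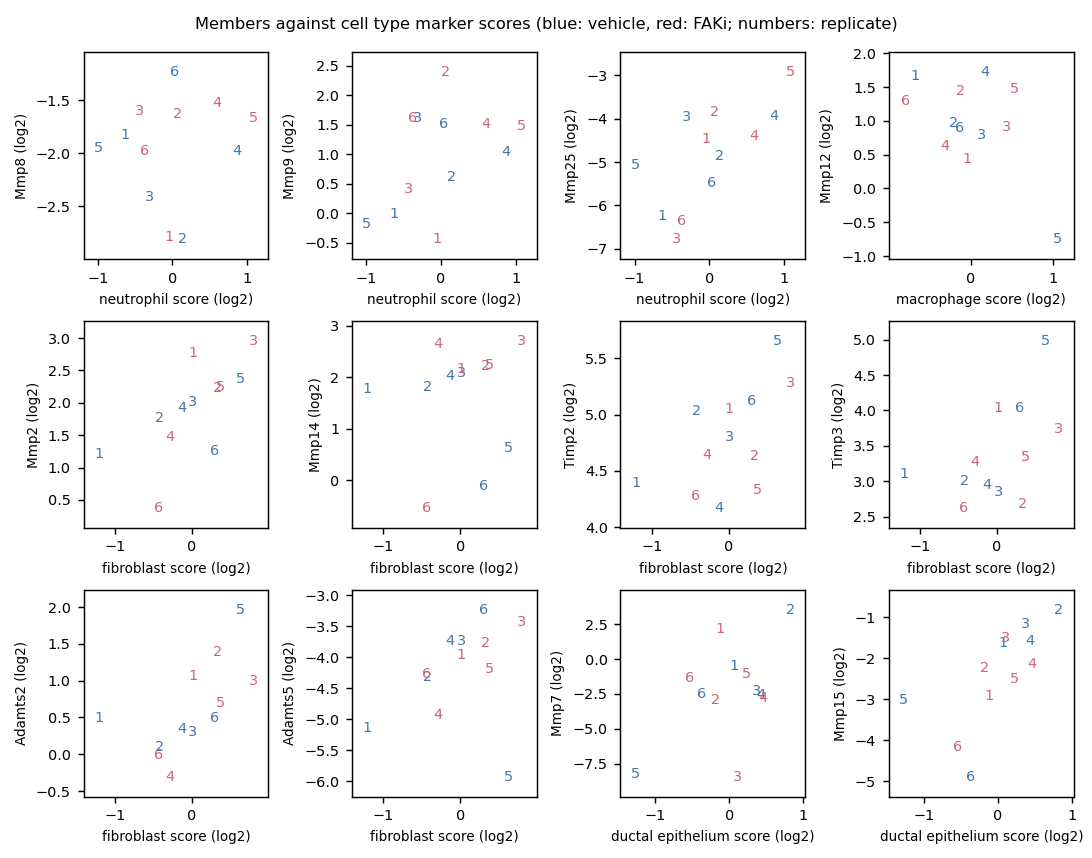
Log2 value of a member (y axis) against a cell type marker score in log2 units (x axis) for the 12 pairs tested, 1 number per tumour, vehicle in blue and FAKi in red. The rank correlation passed for Mmp2 and Adamts2 with fibroblasts, Mmp15 with ductal epithelium and Mmp25 with neutrophils (rho of 0.73 to 0.80). Values of Mmp25 on vehicle 6, FAKi 3 and FAKi 6 and of Mmp15 on vehicle 6 are bounds, not well above background. Vehicle 5 lies apart in the panel of Mmp12.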

How the data were processed

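Transcripts were measured on 12 one-colour Agilent arrays, 1 per tumour, with cRNA labelled with Cy5. Per the file headers, the authors read the intensity of each spot with Agilent Feature Extraction 11.5.1.1, with background subtraction and spatial detrending. The authors' deposited log2 table was used as an alternative, and each of its columns matched its own array best. Limma is named in the submitters' processing notes. How that table was normalised is not stated in those notes or in the labels. Column medians of that table lay between 10.71 and 10.90, so they are not centred on 0. The scanner file of FAKi 6 has no columns of genome positions, and probe positions (mm9) were taken from the other arrays.

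Of 59305 non-control spots per array, 71 to 156 flagged as outliers were left out, and 0 were saturated. Log2 processed signal was taken relative to the 75th percentile of its array, and spots of the same probe were averaged. A gene was represented by its kept probe with the highest mean. FAKi was compared with vehicle by limma 3.58.1 (R 4.3.3, lmFit and eBayes, no covariate) on 27351 genes, with Benjamini-Hochberg adjustment. The limma step was first tested on simulated data. Precision is limited by the number of arrays. Correlations used 100000 permutations over 12 tumours and exact permutation over 6.

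The members, roles, pairs and lists were chosen with earlier results of these data known. Values of each tumour group are given for the 4 Timp genes, Mmp2, Mmp9, Mmp14, the member of smallest p in each role and members with an unadjusted p under 0.05, and for each pathway list the 2 genes of smallest p are named, except 1 gene that is not reported here. Alternatives covered quantile normalisation, median centring, normexp (offset 50), the authors' table, other probe filters, array weights, averaging the probes of a gene, a robust variance trend, slide as a fixed or random block, the replicate number as a block, and each array left out in turn. Leaving out vehicle 6 and FAKi 6 together, with and without vehicle 5, was added after the data had been seen.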

Additional observations from a re-analysis of the deposited data

Results flagged for a closer look

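In groups of 6, a tumour was singled out where its gap to the nearest other value took a larger share of the group's range than Dixon's 95% critical value. Of 98 groups of values (39 members and 10 marker scores, in vehicle and in FAKi tumours), 8 held such a tumour, where chance gives about 1 in 20 groups.

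FAKi 6 was set apart for 3 members. It was low for Mmp14, at −0.53 against 2.17 to 2.70 in the other FAKi tumours, and for Mmp23, at −1.37 against 0.66 to 1.49. It was high for Adamts3, at −4.62 against −5.32 to −5.12. FAKi 1 was low for Adamts15, at −2.34 against −0.96 to −0.63, and for Mmp8, at −2.79 against −1.98 to −1.52. FAKi 2 was high for Adamts4, at 0.59 against −0.34 to −0.07. FAKi 4 was low for Mmp19, at −1.06 against −0.10 to 0.25. Of the vehicle tumours, vehicle 5 was high for Adamts2, at 1.96 against 0.10 to 0.50 in the other vehicle tumours.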

How the results depend on the processing

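The count of genes passing the adjusted p was 0 under the alternatives run, with these exceptions: 3 with array weights, and 0 to 3 when each array was left out, with 3 without FAKi 1. Members at an unadjusted p under 0.05, 1 in the main setting, numbered 2 with normexp, with the mean of a gene's probes and with the replicate block, 4 with array weights, and 1 to 5 when each array was left out. Leaving out vehicle 6 and FAKi 6 together gave 6 members, where 13.7% of all genes were at that mark, and leaving out vehicle 5 too gave 10, where 17.8% were. With slide as a fixed block the count was again 1, but the member was Mmp23 and not Adamts1. Correlations past the threshold, 0 in the main setting, numbered 6 with median centring and 0 to 4 when each array was left out.

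Differences of named members changed sign in 25 of 223 values from alternatives other than leaving out 1 array. With quantile normalisation Adamts13 was −0.016 and Timp4 −0.0034, with normexp −0.0094 and −0.028, and with the authors' deposited log2 table −0.020 and −0.0034. With array weights Adamts13 was −0.19, Timp1 0.28, Timp2 0.0059, Timp3 0.22 and Timp4 −0.014. With slide as a fixed block, which rests on 2 FAKi tumours, Mmp7 was 2.93, Mmp9 −0.37, Mmp10 −0.21 and Timp4 −0.34. With the mean of a gene's probes, which for Adamts12 takes in the dimmer probe, Adamts12 was 0.19. Without vehicle 6 and FAKi 6 Timp1 was 0.24, Timp3 0.042 and Timp4 −0.11. Without vehicle 5 as well Adamts12 was 0.19, Adamts13 −0.14, Timp1 0.39, Timp2 0.19, Timp3 0.44 and Timp4 −0.33. Leaving out each array in turn gave −0.20 to 0.27 for Adamts13, −1.52 to 0.91 for Mmp7, −0.24 to 0.11 for Timp1, −0.35 to 0.10 for Timp3 and −0.11 to 0.30 for Timp4. The correlation of Mmp14 with Timp2 was 0.15 with median centring, 0.025 with the authors' table and 0.090 with the mean of probes, and −0.43 to 0.13 when each array was left out. Leaving out each array also turned the sign of Mmp14 with the fibroblast score (−0.11 to 0.21) and of Mmp9 with Timp1 (−0.28 to 0.071). The cause of these changes was not tested.

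The labels number the replicates 1 to 6 in both groups. Same-numbered tumours deviated together with correlations of 0.17, −0.12, 0.11, 0.11, −0.09 and 0.48, and 3 of 12 tumours correlated best with their own number, so the numbers were not taken as pairs. With the replicate block 2 members, Adamts1 and Adamts10, had an unadjusted p under 0.05 and 0 genes passed.

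Limits are the 6 tumours per group, the wide spread between them, slides that mostly hold 1 group, and 6 measured members that were not well above background on all 12 arrays, for which low values are bounds.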
